A study of Mus musculus and Homo sapiens with 20 samples.

Results

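The mRNAs of 32 protein kinases that are known as clients of the chaperone HSP90 were followed in 3 cell lines after HSP90 inhibition. The genes were chosen by name from a list of client kinases, with earlier results of these data known. Their rows were taken from the 3 deposited count tables by gene symbol, ignoring case. Each table held 33 such rows, of 63568 rows in the K562 table and 43626 in each mouse table, because 1 symbol occurred on a pair of rows. The second LIMK1 row of K562 (ENSG00000262063.3) had no count in any library, and the second Csnk2a1 row of the mouse tables (ENSMUSG00000101523, named Gm10031 in the table of gene names) had at most 2 counts in a library. All 32 genes therefore had 1 row that could carry a signal in each line.

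HSP90 is a cytosolic chaperone that hydrolyses ATP, and the co-chaperone CDC37 brings many kinases to it. Bound to HSP90, a client kinase is held in a form that can be folded and activated. When an inhibitor occupies the ATP pocket, client proteins are commonly ubiquitinated and degraded, which need not involve their mRNAs. The libraries measured the mRNAs only, and the comparison asked whether the transcripts of client kinases rose, fell or held while the chaperone was blocked.

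The treated groups, called HSP90i, received the ATP-site inhibitor NVP-AUY922 for 16 h. K562, a human line from a chronic myeloid leukaemia that carries the BCR-ABL1 fusion, received 300 nM, mouse embryonic fibroblasts (MEF) received 200 nM, and HPC-7, a mouse blood progenitor line, received 50 nM. Their Control groups are named for the solvent DMSO in the count tables. Each line had 3 HSP90i and 3 Control RNA-seq libraries, and line, dose and, for K562, species changed together. Whether replicates came from separate cultures is not stated in the labels, and p-values then reflect the scatter of these samples only, which may be technical.

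K562 libraries held 7936066 to 10950573 counts, MEF libraries 10542305 to 22872539 and HPC-7 libraries 10131491 to 16859394. All 10 marker genes listed for each line reached 1 CPM (read counts scaled to library size, here with TMM factors) in that line, among them TFRC in K562, Col1a1 in MEF and Kit in HPC-7. Control replicate 1 of K562 stood apart from the other controls, with several client kinases lower in it and some higher. PDPK1 was at 54.6 CPM there against 108.4 and 136.9 CPM, and BRAF at 51.8 CPM against 83.3 and 94.9 CPM. ARAF was at 36 CPM there against 24.2 and 23 CPM, and ILK at 105.2 CPM against 82.3 and 77.2 CPM. In MEF, Control replicate 3 was low for Braf, at 44.4 CPM against 71.4 and 78 CPM, and for Yes1, at 16.7 CPM against 31.7 and 34.3 CPM. Client kinase calls that turn on these libraries are given with and without them.

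Client kinase mRNAs changed in both mouse lines by mostly small amounts, and in K562 no call was reached. Enough counts for a test were present for 28 of the 32 genes in K562, for all 32 in MEF and for 26 in HPC-7. Genes were called at an adjusted p under 0.05, from the quasi-likelihood test of edgeR, adjusted by Benjamini-Hochberg over every gene tested in the line. This test stands behind every adjusted p below, and a log2 fold change is HSP90i over Control with its standard error (SE). Since these are bulk libraries, fewer cells with a transcript and less transcript per cell cannot be told apart.

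In K562, 0 of 28 client kinase genes were called, where 11.1% of all genes tested were, 5.11% higher and 5.97% lower. At an unadjusted p under 0.05 there were 7 of 28, against 27% of all genes, and DESeq2 called 0 as well. Treated and control libraries were fully separated for 11 of the 28, 6 higher and 5 lower, where 35.2% of all genes were, 17.4% higher and 17.8% lower. The median log2 fold change was 0.01 for the client kinases and −0.02 for all genes tested.

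In MEF, 25 of 32 were called, 11 higher and 14 lower. Among all genes tested in MEF 73.4% were called, 35.1% higher and 38.2% lower, so the client kinases were called about as often as other genes. A change of at least 2-fold was called in 4 client kinases, Wee1, Chek1, Erbb3 and Egfr, or 12.5% of them, beside 24.3% of all genes. The median size of the log2 fold change, without its sign, was 0.40 for the client kinases and 0.50 for all genes. Without Control replicate 3, 26 of 32 were called, where 74.3% of all genes were.

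In HPC-7, 21 of 26 were called, 18 higher and 3 lower. The share called was 73.1% over all genes tested, 36.5% higher and 36.6% lower, and the higher share among the client kinases was 69.2%. A change of at least 2-fold was called in 5 client kinases, Fgfr1, Src, Insr, Chek1 and Wee1, or 19.2%, beside 26.2% of all genes. The median log2 fold change was 0.34 for the client kinases and −0.00 for all genes, and the median size without sign was 0.40 and 0.56. Without HSP90i replicate 2, in which several genes lay closer to the controls, 22 of 26 were called, where 73.9% of all genes were.

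**Figure D1:**
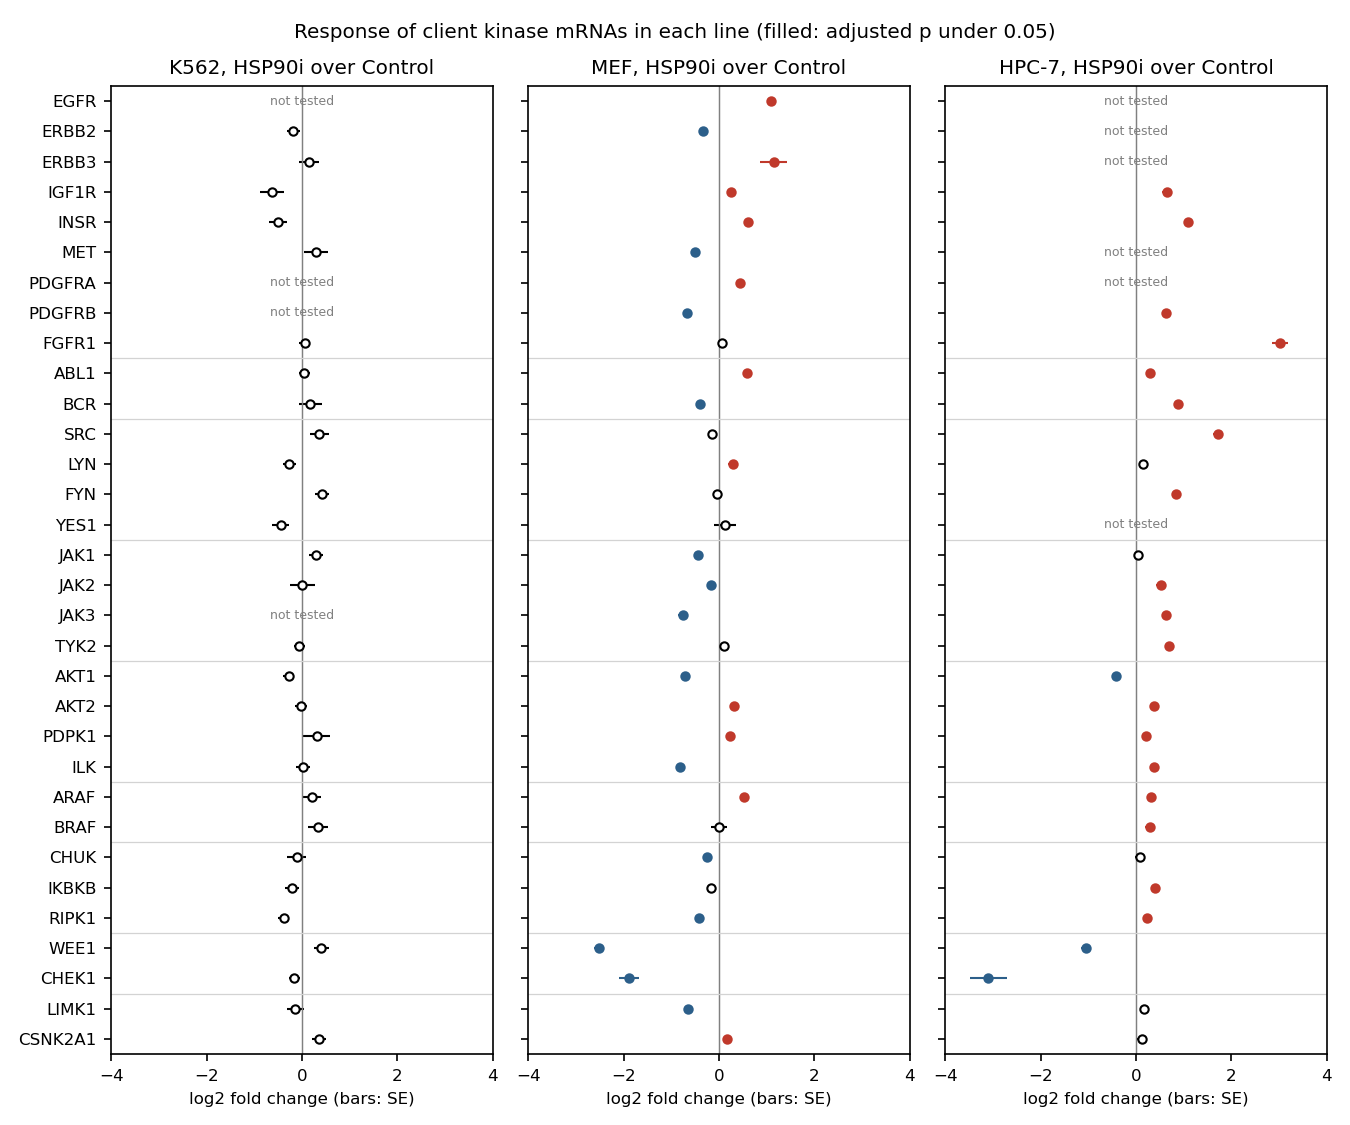
Log2 fold change (HSP90i over Control, horizontal axis) of the 32 client kinase genes (rows, grouped by family) in K562, MEF and HPC-7, with bars for the SE and 3 libraries per group. Filled points passed an adjusted p of 0.05, red for higher and blue for lower, and open points did not. No K562 point is filled, MEF points fall on both sides of 0, and 18 of 21 filled HPC-7 points lie to the right.

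With all libraries no client kinase was called in all 3 lines, although 24 were tested in all of them. Without Control replicate 1 of K562, ARAF was called higher and AKT1 lower in all 3 lines, and IGF1R, WEE1 and RIPK1 were called in all 3 with directions that differed between lines. Higher in both mouse lines were 6 genes, ABL1, AKT2, ARAF, IGF1R, INSR and PDPK1. Lower in both were AKT1, CHEK1 and WEE1. Another 6, BCR, ILK, JAK2, JAK3, PDGFRB and RIPK1, were called lower in MEF and higher in HPC-7. Of these, Jak2 lost its MEF call in 11 of 13 other settings and Ripk1 its HPC-7 call in 4 of 13. None was called higher in MEF and lower in HPC-7. The shares of all genes with these patterns across lines were not counted, so the counts of client kinases are descriptions.

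Of the mRNAs measured, those of the cell cycle checkpoint kinases showed the largest decreases among the client kinases in both mouse lines. WEE1 puts an inhibitory phosphate on CDK1 and so delays mitosis, and CHEK1 relays the signal of stalled replication to the cell cycle. In the GRCm38.p6 annotation Wee1 lies on chromosome 7 (110122059 to 110143299) and Chek1 on chromosome 9 (36708482 to 36726658).

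Wee1 was at 5.51, 4.83 and 6.32 CPM in HSP90i MEF, against 29.9, 33.7 and 32.2 CPM in Control MEF. The groups were far apart, with a log2 change of −2.52 ± 0.10 (adjusted p = 1.19e-07, edgeR), or 5.72-fold lower with the inhibitor. In HPC-7, Wee1 had 26.7, 31 and 22.7 CPM in HSP90i libraries, against 55.2, 59.8 and 51.8 CPM in Control libraries. There the decrease was smaller, −1.05 ± 0.11 (adjusted p = 1.79e-05, edgeR). In K562, WEE1 was at 217.8, 215.5 and 197.6 CPM in HSP90i libraries and at 124.7, 186.1 and 164.0 CPM in Control libraries. Every treated value was above every control value, and the difference did not pass the test (log2 fold change 0.41 ± 0.16, adjusted p = 0.143, edgeR).

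Chek1 had 9.52, 6.32 and 10.6 CPM in HSP90i MEF, against 35.6, 38.6 and 23.9 CPM in Control MEF, or −1.88 ± 0.21 in log2 terms (adjusted p = 5.46e-05, edgeR). Its lowest control was replicate 3, and without that library the value was −2.01 ± 0.14. In HPC-7, Chek1 was at 3.34, 16.6 and 5.3 CPM in HSP90i libraries, against 71.9, 70.1 and 65 CPM in Control libraries, or −3.10 ± 0.39 in log2 terms (adjusted p = 4.68e-05, edgeR). Replicate 2 of the HSP90i group held far more Chek1 than the other treated libraries, and without it the value was −4.03 ± 0.15. CHEK1 in K562 was the checkpoint kinase with the smallest SE among those not called. It had 101.4, 120.8 and 113.5 CPM in HSP90i libraries and 119.4, 126.4 and 128.3 CPM in Control libraries, so the groups overlapped (−0.16 ± 0.12, adjusted p = 0.467, edgeR).

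The mitotic kinase genes Cdk1, Plk1 and Aurkb fell in MEF, with log2 fold changes of −1.80 ± 0.06, −2.38 ± 0.06 and −2.67 ± 0.08. They fell in HPC-7 as well, Cdk1 by 4-fold, Plk1 at −1.94 ± 0.11 and Aurkb at −2.77 ± 0.25. PLK1 was called higher in K562 (0.71 ± 0.13), a call lost without any 1 HSP90i library or Control replicate 2, and CDK1 there was at 333.4 ± 43.6 CPM in HSP90i libraries and 253.0 ± 41.2 CPM in Control libraries (SD, n = 3 each) and was not called. The part of these genes in the checkpoint kinase result was not tested.

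Promoters of the mouse client kinases were searched for letters of known transcription factor sites, in RefSeq sequence of the GRCm38.p6 build from 250 bases before to 50 bases after each annotated start. Sequences were found for 25 of the 32 genes, 34 promoters in all. No entry was found for Erbb3, Wee1, Fgfr1, Pdgfrb, Ikbkb, Insr and Lyn. The promoter of Chek1, which fell in both mouse lines, is shown beside those of Src, which rose in HPC-7, and Egfr, which rose in MEF. Each sequence is 300 bases long, and capitals mark letters of a searched site.
Chek1, chr9:36726609-36726908, minus strand: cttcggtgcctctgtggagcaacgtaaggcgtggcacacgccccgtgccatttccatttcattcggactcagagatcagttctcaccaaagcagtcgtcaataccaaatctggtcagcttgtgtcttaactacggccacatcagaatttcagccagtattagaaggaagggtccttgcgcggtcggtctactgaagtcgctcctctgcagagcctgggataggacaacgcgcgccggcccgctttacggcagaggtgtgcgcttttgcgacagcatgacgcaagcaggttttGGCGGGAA
Src, chr2:157424043-157424342, plus strand: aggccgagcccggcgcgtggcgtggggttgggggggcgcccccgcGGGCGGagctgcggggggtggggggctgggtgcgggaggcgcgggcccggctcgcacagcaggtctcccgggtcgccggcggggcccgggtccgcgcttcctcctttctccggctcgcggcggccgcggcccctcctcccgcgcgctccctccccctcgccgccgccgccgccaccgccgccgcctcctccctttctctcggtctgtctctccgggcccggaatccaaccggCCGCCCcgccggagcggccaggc
Egfr, chr11:16751953-16752252, plus strand: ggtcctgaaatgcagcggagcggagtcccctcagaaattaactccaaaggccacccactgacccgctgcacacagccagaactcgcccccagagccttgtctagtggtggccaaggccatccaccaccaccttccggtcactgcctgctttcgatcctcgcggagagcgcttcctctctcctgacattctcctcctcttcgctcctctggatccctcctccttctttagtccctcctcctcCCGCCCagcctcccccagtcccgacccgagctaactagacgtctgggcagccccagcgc

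Letters of an E2F site, the site of the factors that drive S phase genes, were searched on both strands as TTTCGCGC, TTTGGCGC, TTCCCGCC and TTTCCCGC. The last 2 overlap where one follows the other by a base. Among the client kinases only Chek1 held one, its reverse complement starting 42 bases after the start, where 3.49% of 32851 mouse promoters of the same length held one. The GC box, GGGCGG, was in 23 of the 34 client kinase promoters, from 21 of 25 genes, against 35.7% of all promoters. In Src it stood at 205 bases before and at 27 bases after the start, and in Egfr at 9 bases before it. The CCAAT box, as CCAAT, was in 10 of 34, where 37.4% of all promoters held it.

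The heat shock element, bound by HSF1, was searched as 2 inverted units (GAANNTTC and TTCNNGAA) and as 3 alternating units, the shorter letters lying inside the longer. The 3-unit element was in 0 of the 34 client kinase promoters and in 0.603% of all. The 2-unit letters were in 4, those of Jak2, Pdgfra, Pdpk1 and Ripk1, and in 15.1% of all. TTTGAA, letters of the cell cycle element CHR, was in 4 promoters and in 17.9% of all, and GGAATG, letters of a TEAD site, in 7 and in 14.7% of all. GTAAACA, letters of a FOXO site, was in the Akt1 promoter alone among the client kinases and in 3.65% of all. A match is a description of letters in this window and says nothing about binding.

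Among the receptor tyrosine kinases, which start most of the signalling that the other client kinases relay, transcripts moved in different directions in MEF and upwards in HPC-7. In MEF 5 of 9 rose and 3 fell, where 35.1% of all genes were called higher and 38.2% lower. In HPC-7 all 4 that could be tested rose, where 36.5% of all genes were called higher, and in K562 none of 6 was called, where 11.1% of all genes were. The strongest change of a client kinase mRNA upwards was that of Fgfr1, a receptor for fibroblast growth factors (chromosome 8, 25518759 to 25575718).

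In HPC-7, Fgfr1 was at 28.3, 22.4 and 25.4 CPM in HSP90i libraries, against 3.47, 2.22 and 3.59 CPM in Control libraries. The treated values were all several times the controls, 8.11-fold higher with a log2 change of 3.02 ± 0.17 (adjusted p = 5.35e-07, edgeR). MEF held much more Fgfr1 relative to library size, with 772.3, 731.9 and 688.9 CPM in HSP90i libraries and 700.8, 678.3 and 719.6 CPM in Control libraries. These groups overlapped, and with an SE of 0.05 the log2 fold change of 0.06 was not called (adjusted p = 0.284, edgeR). K562 had 168.0, 172.5 and 170.6 CPM in HSP90i libraries and 164.8, 160.1 and 166.5 CPM in Control libraries. That is a log2 fold change of 0.06 ± 0.11, not called. The mouse tables were scaled separately, so levels set across lines are descriptions.

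Insr encodes the insulin receptor and Igf1r its relative for insulin-like growth factors. Insr was at 151.3, 150.5 and 172.8 CPM in HSP90i HPC-7, against 74.4, 77.9 and 68.6 CPM in Control HPC-7, and rose by 1.10 ± 0.08 on the log2 scale (adjusted p = 2.18e-06, edgeR). In MEF it had 53, 56.4 and 53.6 CPM in HSP90i libraries and 31.9, 38.1 and 36.7 CPM in Control libraries, a rise of 0.62 ± 0.08. Igf1r rose by 0.65 ± 0.10 in HPC-7 and by 0.26 ± 0.07 in MEF. In K562 neither passed the test. INSR was at 4.36, 4.1 and 4.56 CPM in HSP90i libraries and 6, 5.78 and 6.69 CPM in Control libraries (log2 fold change −0.50 ± 0.18, adjusted p = 0.118, edgeR), and IGF1R had −0.62 ± 0.25.

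The EGF receptor family was present in MEF but nearly absent from HPC-7. Egfr (chromosome 11, 16752203 to 16913907) was at 247.9, 240.9 and 251.3 CPM in HSP90i MEF, against 117.0, 120.6 and 107.3 CPM in Control MEF. Its values lay close together within each group, and the log2 fold change was 1.10 ± 0.05 (adjusted p = 2.82e-07, edgeR). Erbb2, the family member that binds no ligand of its own, fell by 0.33 ± 0.05. Erbb3 rose at a very low level, with 1.01, 1.21 and 1.25 CPM in HSP90i MEF against 0.44, 0.663 and 0.476 CPM in Control MEF. Its log2 fold change of 1.15 ± 0.28 (adjusted p = 0.00549, edgeR) rested on 21, 13 and 14 counts with the inhibitor and 10, 7 and 5 without, and DESeq2 did not call it (adjusted p = 0.0874).

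In HPC-7, Egfr and Erbb2 had no count in any library, where a count of 0 allows up to 0.178 to 0.296 CPM (3 counts, by library total, for counting error only). Erbb3, Met, Pdgfra and Yes1 had at most 2 counts in an HPC-7 library. In K562, EGFR and PDGFRA had no count (up to 0.274 to 0.378 CPM by the same limit), and PDGFRB had at most 3 counts. ERBB2 was at 18.5, 17.4 and 17.5 CPM in HSP90i K562 and at 21.8, 18.6 and 20.1 CPM in Control K562, not called at −0.18 ± 0.14. ERBB3 (0.16 ± 0.21) and MET, the receptor for hepatocyte growth factor (0.30 ± 0.25), were not called either.

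The pair of platelet-derived growth factor receptors, which drive growth of connective tissue cells, moved apart in MEF. Pdgfra rose by 0.45 ± 0.05 and Pdgfrb fell by 0.66 ± 0.05 on the log2 scale, to 158.5 ± 3.99 CPM in HSP90i MEF against 250.1 ± 14.6 CPM in Control MEF (SD, n = 3 each). In HPC-7, Pdgfrb rose by 0.62 ± 0.08, to 293.2 ± 22.4 CPM in HSP90i libraries against 191.5 ± 12.4 CPM in Control libraries (SD, n = 3 each). Met fell in MEF by 0.51 ± 0.05.

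ABL1 is a tyrosine kinase of the nucleus and cytoplasm, and BCR is its fusion partner in chronic myeloid leukaemia. In K562, reads of BCR-ABL1 transcripts count towards both genes, so the fusion and the normal mRNAs cannot be told apart in these tables. ABL1 had 231.1, 203.7 and 226.0 CPM in HSP90i K562 and 195.2, 223.6 and 221.3 CPM in Control K562. The groups overlapped, with a log2 change of 0.05 ± 0.12 (adjusted p = 0.848, edgeR). BCR was at 69.2, 62.7 and 77.8 CPM in HSP90i K562 and at 38.3, 69.9 and 76.9 CPM in Control K562, again overlapping (0.18 ± 0.24, adjusted p = 0.684, edgeR). The low control is replicate 1, and without it BCR was at −0.07 ± 0.10 and ABL1 at −0.01 ± 0.08, neither called.

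In the mouse lines, which carry no label of a fusion, both genes changed. Abl1 (chromosome 2, 31688244 to 31807093) had 252.2, 239.9 and 231.3 CPM in HSP90i MEF, against 160.5, 153.1 and 171.1 CPM in Control MEF, a rise of 0.58 ± 0.06 on the log2 scale (adjusted p = 1.96e-05, edgeR). In HPC-7 it had 327.7, 285.0 and 305.2 CPM in HSP90i libraries against 233.1, 257.8 and 258.9 CPM in Control libraries, a smaller rise of 0.29 ± 0.08. Bcr (chromosome 10, 75060560 to 75184923) moved in opposite directions. It fell to 99, 95.5 and 89.2 CPM in HSP90i MEF, against 128.0, 123.2 and 120.8 CPM in Control MEF (−0.39 ± 0.05, adjusted p = 0.000198, edgeR). It rose to 219.9, 175.0 and 199.7 CPM in HSP90i HPC-7, against 106.4, 108.0 and 109.7 CPM in Control HPC-7 (0.88 ± 0.09, adjusted p = 1.1e-05, edgeR).

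**Figure D2:**
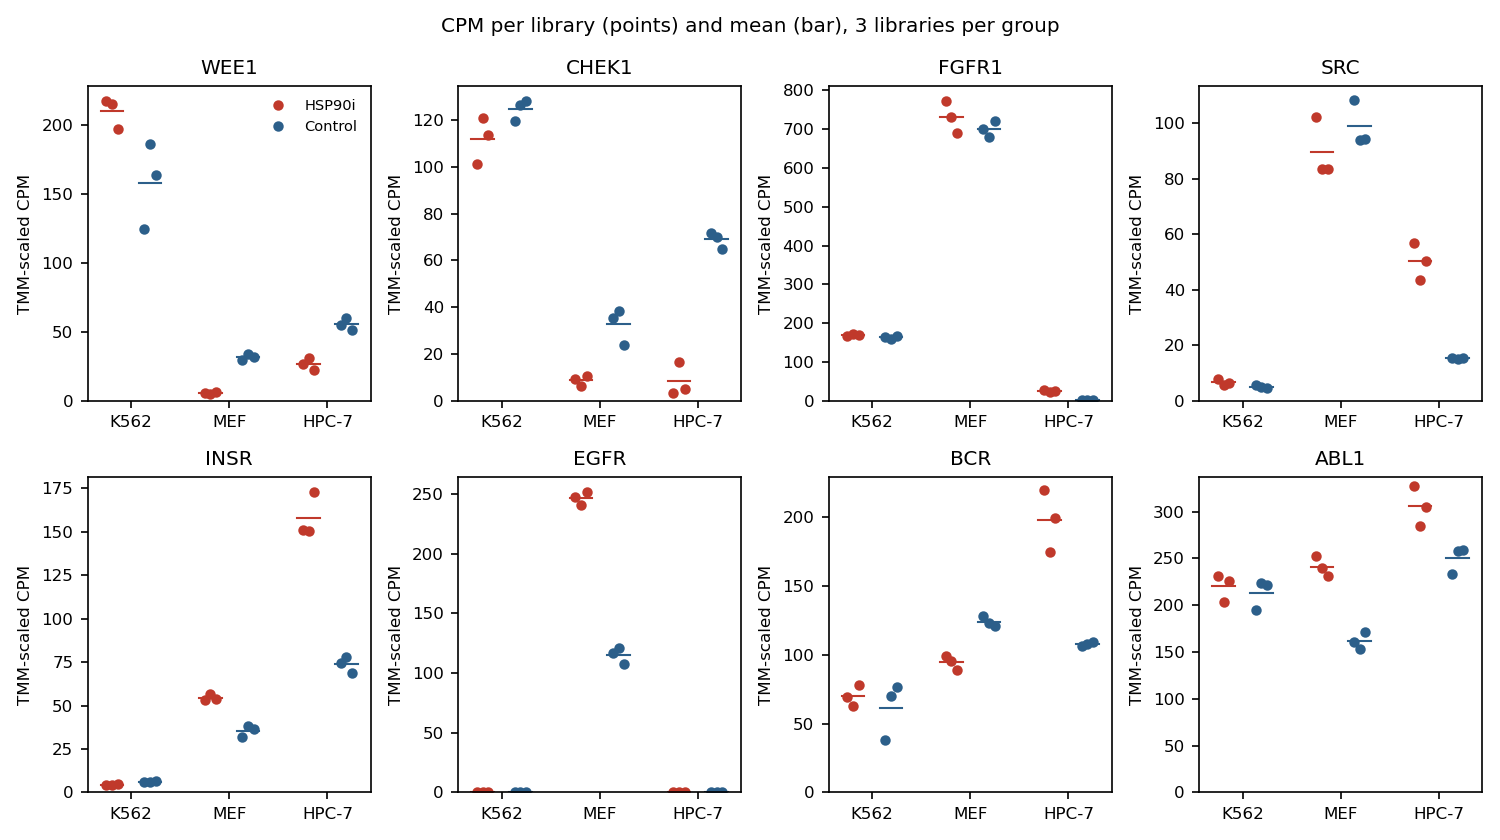
TMM-scaled CPM (vertical axis, from 0) of 8 client kinase genes in each library of K562, MEF and HPC-7, HSP90i in red left of Control in blue, with the mean of 3 libraries as a bar. Wee1 and Chek1 are lower with the inhibitor in MEF and HPC-7, Fgfr1 and Src are higher in HPC-7, and the K562 groups lie close together or overlap.

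SRC, FYN, YES1 and LYN are membrane-bound kinases that act beside receptors. Src rose in HPC-7 to 56.8, 43.6 and 50.3 CPM in HSP90i libraries, against 15.3, 15.1 and 15.5 CPM in Control libraries. The controls hardly varied, and the treated values were 3.29-fold higher (log2 fold change 1.72 ± 0.11, adjusted p = 9.33e-07, edgeR). In MEF, Src had 102.0, 83.5 and 83.4 CPM in HSP90i libraries and 108.1, 94 and 94.1 CPM in Control libraries and was not called (−0.14 ± 0.09). Both groups of MEF have their highest value in replicate 1, and Src was called lower without HSP90i replicate 1 (adjusted p = 0.0265, edgeR) and with the replicate number as a block (adjusted p = 0.0358, edgeR).

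Fyn rose by 0.84 ± 0.07 in HPC-7, where Lyn, the main SRC-family kinase of many blood cells, was not called (0.14 ± 0.08). In MEF, Fyn was the family member with the smallest SE among those not called. It had 84.6, 83.5 and 78.7 CPM in HSP90i MEF and 84.2, 82.2 and 85.3 CPM in Control MEF, a log2 fold change of −0.03 ± 0.05. Lyn in MEF was called higher (0.30 ± 0.10), a call lost with DESeq2 (adjusted p = 0.0758) and without HSP90i replicate 1 or 2 or Control replicate 1 (edgeR adjusted p = 0.081, 0.0509 and 0.0722). Yes1 in MEF was not called (0.13 ± 0.23, or −0.07 ± 0.11 without Control replicate 3). In K562 the 4 members were spread around 0 without a call, FYN at 0.42 ± 0.14, SRC at 0.37 ± 0.20, LYN at −0.26 ± 0.13 and YES1 at −0.44 ± 0.18.

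JAK1, JAK2, JAK3 and TYK2 carry the signals of cytokine receptors to STAT proteins. In HPC-7 Jak2, Jak3 and Tyk2 rose by 0.52 ± 0.09, 0.64 ± 0.08 and 0.69 ± 0.09 on the log2 scale. Jak3, which pairs with the common gamma chain of lymphoid cytokine receptors, was at 627.6 ± 56.5 CPM in HSP90i HPC-7 and 403.0 ± 22.2 CPM in Control HPC-7 (SD, n = 3 each). Jak1 was not called, at 347.5, 349.7 and 360.9 CPM in HSP90i HPC-7 and 341.1, 345.7 and 343.8 CPM in Control HPC-7. Those groups do not overlap but differ by a log2 change of only 0.04 ± 0.06 (adjusted p = 0.592, edgeR).

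In MEF 3 of the 4 genes were called, all lower, where 73.4% of all genes were called and 38.2% were called lower. Jak3 fell by 0.76 ± 0.09 and Jak1 by 0.44 ± 0.05 on the log2 scale, Jak1 to 180.2, 178.8 and 180.4 CPM in HSP90i MEF, against 229.4, 247.6 and 256.1 CPM in Control MEF. Jak2 (−0.17 ± 0.07, adjusted p = 0.0479, edgeR) passed narrowly and lost its call in 11 of 13 other settings, at an adjusted p of up to 0.398. Tyk2 was at 35.5, 34.5 and 34.3 CPM in HSP90i MEF and at 30.7, 32.4 and 34.1 CPM in Control MEF, not called at 0.11 ± 0.06 but called higher without Control replicate 3 (0.18 ± 0.07, adjusted p = 0.0329, edgeR). In K562, JAK1 (0.29 ± 0.15), JAK2 (0.01 ± 0.26) and TYK2 (−0.05 ± 0.12) were not called. JAK3 had too few counts for a test, 6, 7 and 5 in HSP90i K562 and 1, 1 and 3 in Control K562.

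AKT1 and AKT2 are paralogous kinases downstream of PI3 kinase, PDPK1 is the kinase that activates them, and ILK is a scaffold of integrin adhesions. Akt1 fell and Akt2 rose in both mouse lines. In MEF, Akt1 was at 229.5, 216.9 and 222.9 CPM in HSP90i libraries, against 374.9, 356.1 and 374.0 CPM in Control libraries, a fall of 0.72 ± 0.04 in log2 terms (adjusted p = 9.56e-07, edgeR), while Akt2 rose by 0.32 ± 0.04. In HPC-7 the values were −0.41 ± 0.08 for Akt1 and 0.37 ± 0.08 for Akt2, both called. K562 had AKT1 at −0.28 ± 0.12, not called, and AKT2 at −0.02 ± 0.12 with 94.7, 81.2 and 93.1 CPM in HSP90i libraries and 94.7, 91.8 and 86.9 CPM in Control libraries.

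Ilk fell in MEF, to 119.6, 125.4 and 121.8 CPM in HSP90i libraries against 206.0, 219.1 and 221.6 CPM in Control libraries (−0.82 ± 0.05, adjusted p = 8.22e-07, edgeR). It rose in HPC-7 by 0.37 ± 0.07 and was at 0.02 ± 0.15 in K562, not called. Pdpk1 rose in MEF by 0.24 ± 0.06 and in HPC-7 by 0.21 ± 0.07. The HPC-7 call was lost in 5 of 13 other settings, at an adjusted p of up to 0.101 with no filter on low counts. PDPK1 in K562 was at 0.31 ± 0.29 with all libraries and at 0.02 ± 0.11 without Control replicate 1.

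The RAF kinases start the MAP kinase cascade below RAS. Araf rose by 0.52 ± 0.05 in MEF, to 90.1 ± 1.44 CPM in HSP90i libraries against 62.9 ± 2.39 CPM in Control libraries (SD, n = 3 each), and by 0.32 ± 0.07 in HPC-7. Braf was not called in MEF, with 66.5, 60.7 and 67.9 CPM in HSP90i libraries and 71.4, 78 and 44.4 CPM in Control libraries. The spread of the controls was wide, and the log2 fold change was 0.01 ± 0.17, or −0.15 ± 0.07 without Control replicate 3 (adjusted p = 0.0551, edgeR). In HPC-7, Braf was called higher (0.30 ± 0.10), and the call was lost without HSP90i replicate 3, Control replicate 2 or Control replicate 3 (edgeR adjusted p = 0.0692, 0.0602 and 0.0871). ARAF (0.21 ± 0.20) and BRAF (0.34 ± 0.21, or 0.13 ± 0.10 without Control replicate 1) were not called in K562.

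CHUK and IKBKB are the catalytic subunits of the IkB kinase complex, which releases NF-kB, and RIPK1 relays signals of the TNF receptor. In HPC-7, Ikbkb rose by 0.40 ± 0.07 and Ripk1 by 0.23 ± 0.08. The Ripk1 call was lost in 4 of 13 other settings, at an adjusted p of up to 0.105 without Control replicate 3. Chuk was not called there (0.08 ± 0.10). In MEF, Ripk1 fell by 0.42 ± 0.07 and Chuk by 0.26 ± 0.08, a call that 4 other settings lost, at an adjusted p of up to 0.0989 with upper quartile factors. Ikbkb was at 48.9, 47.9 and 49.3 CPM in HSP90i MEF and at 50.8, 59.3 and 53.9 CPM in Control MEF. These groups do not overlap, and the log2 fold change of −0.16 ± 0.07 just missed the threshold (adjusted p = 0.0523, edgeR). In K562, RIPK1 (−0.38 ± 0.12), IKBKB (−0.20 ± 0.15) and CHUK (−0.11 ± 0.20) were not called.

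LIMK1 phosphorylates cofilin and so stabilises actin filaments, and CSNK2A1 is the catalytic subunit of casein kinase 2, which also phosphorylates CDC37. Limk1 fell in MEF by 0.65 ± 0.09. In HPC-7 it had 87.8, 80.3 and 78 CPM in HSP90i libraries and 68.3, 73.1 and 77.9 CPM in Control libraries, not called at 0.17 ± 0.08 (adjusted p = 0.0839, edgeR). Csnk2a1 was called higher in MEF by 0.17 ± 0.06, and the call was lost without HSP90i replicate 1 or 2 (edgeR adjusted p = 0.0515 and 0.0938). HPC-7 had Csnk2a1 at 0.12 ± 0.09 and K562 at 0.36 ± 0.14, neither called. Reads of CSNK2A1 may be shared with near-identical copies elsewhere in the genome. LIMK1 in K562 was at −0.14 ± 0.18.

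Leaving out Control replicate 1 changed the K562 result. Without it 10 of 28 client kinases were called, where 28.6% of all genes tested were, 14% higher and 14.6% lower. The 4 higher were ARAF (0.44 ± 0.12), FYN (0.38 ± 0.11), WEE1 (0.27 ± 0.09) and CSNK2A1 (0.24 ± 0.08). The 6 lower were IGF1R (−0.80 ± 0.19), YES1 (−0.62 ± 0.08), RIPK1 (−0.39 ± 0.10), LYN (−0.34 ± 0.09), CHUK (−0.31 ± 0.10) and AKT1 (−0.29 ± 0.10). YES1 shows the change most plainly, with 98.7, 104.1 and 99 CPM in HSP90i libraries and 100.7, 151.0 and 157.9 CPM in Control libraries, the first of these being replicate 1. Without that control its adjusted p was 9.92e-05, against 0.153 with it (edgeR). Among the 10, IGF1R and YES1 had the largest fitted changes. Removing any other K562 library gave 0 calls among the client kinases. Calls over all genes were then 1670 without Control replicate 3, and 348 to 569 in the other such fits, of 13669 to 13800 tested. With all libraries they were 1491.

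**Figure D3:**
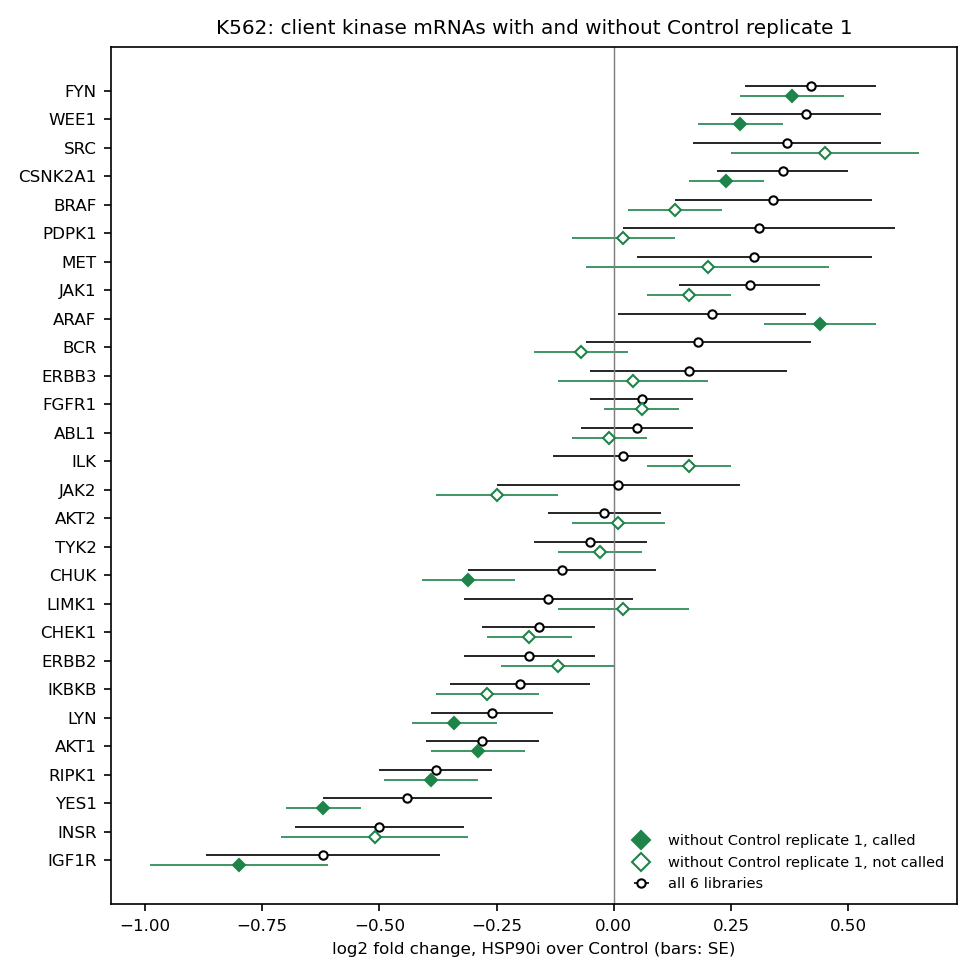
Log2 fold change (HSP90i over Control, horizontal axis, bars for the SE) of the 28 client kinase genes tested in K562, with all 6 libraries (black circles) and without Control replicate 1 (green diamonds, filled where the adjusted p was under 0.05). With all libraries none was called, and without that control 10 were, 4 to the right and 6 to the left of 0.

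Whether MEF responded otherwise than HPC-7 was tested with an interaction term fitted over the 12 mouse libraries. Of 26 client kinases tested in both lines 18 differed, 3 with the MEF response above the HPC-7 response and 15 below. Over the 10371 genes tested in both lines, 53.3% differed, 32.1% with MEF above and 21.2% below. The median difference was −0.40 for the client kinases and 0.13 for all genes. The second value moved with the scaling, to 0.00 with RLE factors and to −0.08 or −0.09 without any 1 HPC-7 Control library. With each line scaled by its own factors, an alternative added after seeing the data, the median of all genes was 0.01, and the client kinases split into 1 above and 17 below. Over all genes that scaling gave 2691 above and 2816 below.

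Under both scalings 16 of the 18 differences were called, 15 with MEF below and Abl1 above. The Abl1 call was lost with RLE factors and without any 1 HPC-7 Control library, and that of Insr with the replicate block and without MEF Control replicate 3. Of these 2 scalings, Araf and Chek1 were called under the joint scaling alone, and Akt1 and Igf1r under the scaling within each line alone. The Araf and Chek1 calls were also lost with RLE factors, with DESeq2 and without any 1 HPC-7 Control library. That of Chek1 was lost besides with library size alone and without any 1 MEF Control library, among other settings. The largest difference, MEF minus HPC-7, was that of Fgfr1 at −2.84 ± 0.18. Src followed at −1.74 ± 0.16, Wee1 at −1.34 ± 0.16, Jak3 at −1.28 ± 0.13, Bcr and Pdgfrb at −1.15 ± 0.11 and −1.15 ± 0.10, and Ilk at −1.07 ± 0.09. Line and dose cannot be told apart in these differences, since MEF received 200 nM and HPC-7 50 nM.

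**Figure D4:**
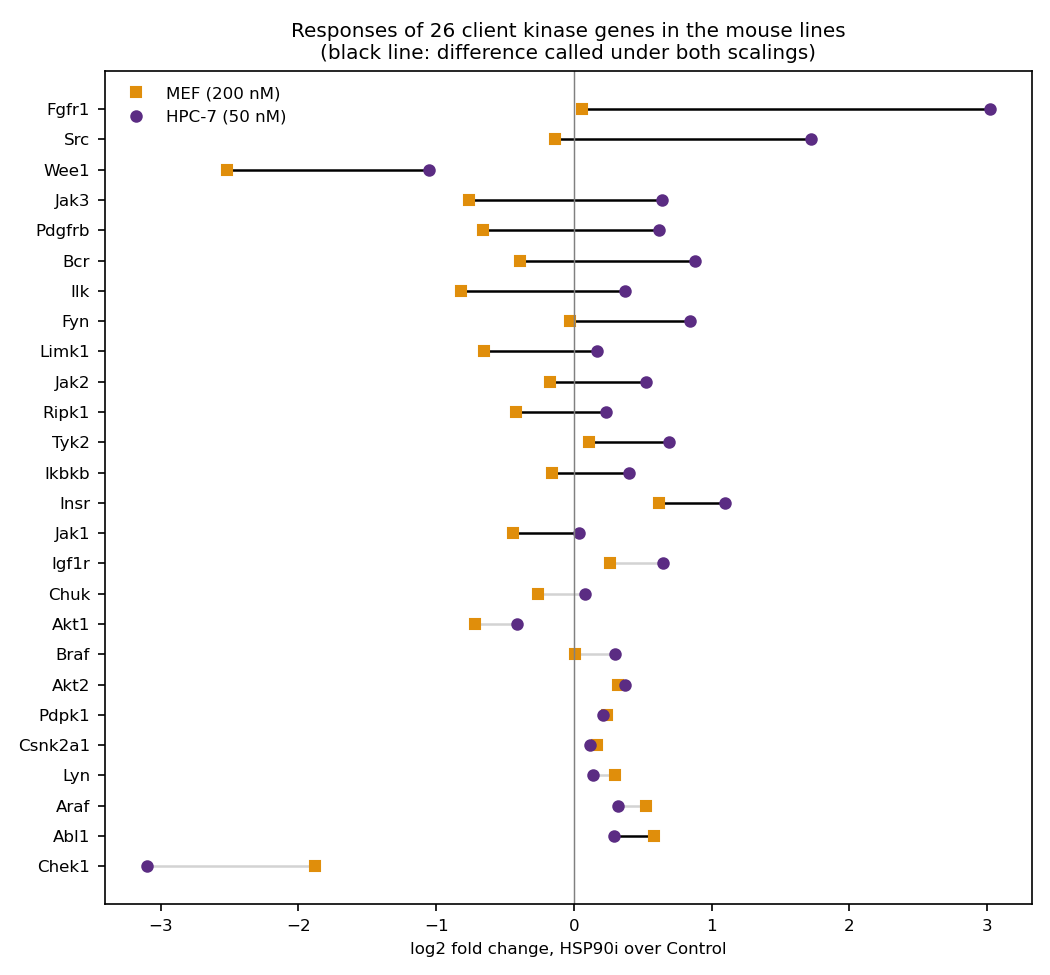
Log2 fold change (HSP90i over Control, horizontal axis) of the 26 client kinase genes tested in both mouse lines, MEF as orange squares and HPC-7 as purple circles, joined by a black line where the difference was called under both scalings and grey where it was not. The MEF square lies left of the HPC-7 circle for 15 of the 16 genes with a black line.

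Ratios of counts between related client kinases within a library do not depend on how libraries are scaled. Counts were not divided by gene length, so a ratio is compared between groups and does not say which mRNA is more abundant. Of 28 ratios in the 3 lines, 19 did not overlap between HSP90i and Control. These were 4 of 9 in K562, 8 of 11 in MEF and 7 of 8 in HPC-7, where single genes did not overlap in 35.2%, 76.2% and 77.4% of all genes tested. Without Control replicate 1 the K562 count was 8 of 9. The share of all genes was not counted in that setting, where fewer controls are more easily separated. Ratios of other gene pairs were not counted either, so the ratio counts have no like background and are descriptions. With 3 libraries against 3, the exact two-sided permutation test cannot go below p = 0.10, which each of the 19 reached (0.15 adjusted over the 28 ratios).

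The ratio of AKT2 to AKT1 was higher with the inhibitor in every line. It was 1.26, 1.28 and 1.41 in HSP90i K562, against 1.15, 1.09 and 1.06 in Control K562. In MEF it was 0.652, 0.673 and 0.659 in HSP90i libraries, against 0.308, 0.333 and 0.326 in Control libraries, and in HPC-7 1.03, 0.91 and 1.12 in HSP90i libraries against 0.581, 0.583 and 0.604 in Control libraries. The differences of the mean log2 ratio were 0.26, 1.04 and 0.78, each with an exact permutation p of 0.10. With all libraries, no other ratio measured in all 3 lines was without overlap and in the same direction in each. Without Control replicate 1 of K562, INSR over IGF1R was as well, at 0.869, 0.822 and 0.634 in HSP90i K562 against 0.622 and 0.624 in the other controls.

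Within the receptors of MEF, ERBB2 over EGFR was 0.232, 0.223 and 0.212 in HSP90i libraries against 0.603, 0.569 and 0.628 in Control libraries, and PDGFRB over PDGFRA was 1.89, 1.98 and 1.94 in HSP90i libraries against 3.84, 4.64 and 4.09 in Control libraries. Both thus lay lower in every treated library (exact permutation p = 0.10 each). The ratio of WEE1 to CHEK1 went in different directions. Its geometric mean was 0.643 in HSP90i MEF against 0.997 in Control MEF, 3.98 in HSP90i HPC-7 against 0.805 in Control HPC-7, and 1.88 in HSP90i K562 against 1.25 in Control K562. FYN over LYN was higher with the inhibitor in K562 (0.802 in HSP90i, 0.503 in Control) and HPC-7 (3.46 in HSP90i, 2.14 in Control) and lower in MEF (5.6 in HSP90i, 6.95 in Control).

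**Figure D5:**
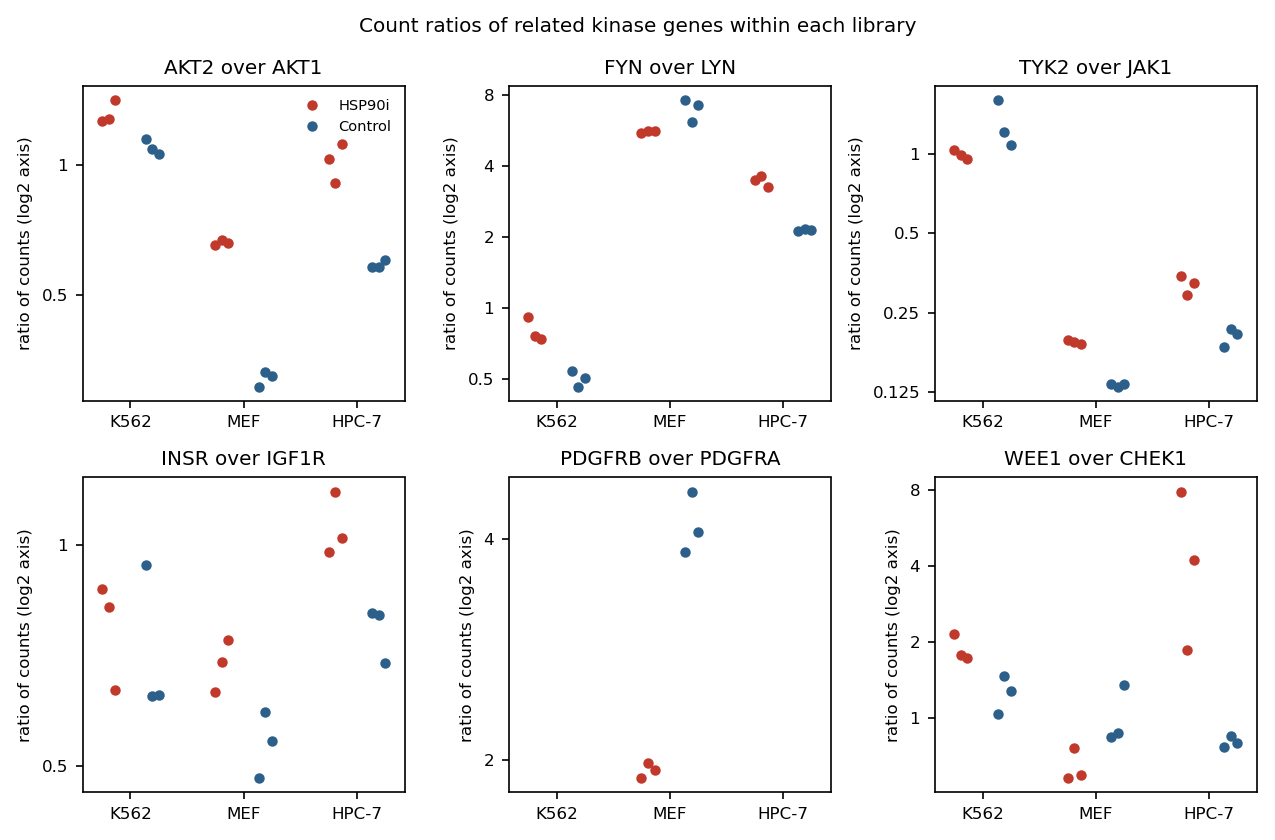
Ratios of raw counts (log2 axis) of 6 pairs of client kinase genes in each library of K562, MEF and HPC-7, HSP90i in red left of Control in blue, 3 libraries per group. AKT2 over AKT1 lies higher with the inhibitor in every line, PDGFRB over PDGFRA lies lower in MEF and could not be formed elsewhere, and WEE1 over CHEK1 spreads widely in HSP90i HPC-7, between 1.87 and 7.9.

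Around the client kinases, 6 lists of other genes were counted. Among all genes tested, 5.11% were called higher and 5.97% lower in K562, 35.1% and 38.2% in MEF, and 36.5% and 36.6% in HPC-7. The edgeR counts of every list with all libraries stand beside those shares. Of the chaperone machinery that serves kinases, 14 of 20 genes were higher and 0 lower in K562 (median log2 fold change 1.34), among them HSPH1 (4.34 ± 0.14) and DNAJB1 (3.09 ± 0.13). In MEF 10 were higher, among them Hspa8 (2.52 ± 0.07), Hsph1 (1.78 ± 0.05) and Hsp90ab1 (1.25 ± 0.05). Another 8 were lower there, Fkbp5, a steroid receptor co-chaperone, falling by 2.69 ± 0.10. In HPC-7 7 were higher, among them Hspa8 (1.60 ± 0.08) and Hsph1 (0.94 ± 0.08), and 11 lower, among them Hspa4 (−0.82 ± 0.08) and Hsp90aa1 (−0.62 ± 0.15). Hsp90aa1 was called higher in K562 (3.20 ± 0.13) and MEF (1.21 ± 0.22). Of the lower genes Ppp5c, the phosphatase that acts on CDC37, fell by 1.18 ± 0.11. CDC37 itself, the adaptor that brings kinases to HSP90, was at 186.7 ± 11.2 CPM in HSP90i K562 and 195.0 ± 51.8 CPM in Control K562, not called. It fell to 202.7 ± 6.99 CPM in HSP90i MEF against 237.1 ± 14.6 CPM in Control MEF, and to 182.9 ± 16.1 CPM in HSP90i HPC-7 against 257.3 ± 17.4 CPM in Control HPC-7 (SD, n = 3 each).

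Of 30 other kinases known as clients, 1 of 23 tested was higher and 4 lower in K562, 7 of 21 higher and 12 lower in MEF, and 8 of 22 higher and 9 lower in HPC-7. Those HPC-7 counts lay near the shares of all genes, 36.5% higher and 36.6% lower. MAP3K14, which acts above the IkB kinases, fell by 0.99 ± 0.15 in K562, Epha2, an ephrin receptor, by 1.41 ± 0.07 in MEF, and Cdk4, the G1 cyclin-dependent kinase, by 0.93 ± 0.09 in HPC-7. Kit, the receptor for stem cell factor, rose in HPC-7 to 2570.6, 2315.7 and 2679.1 CPM in HSP90i libraries, against 981.8, 1012.5 and 965.5 CPM in Control libraries (1.35 ± 0.08). Kinases of the same cascades that are not usually counted as clients had 0 of 20 called in K562, 1 higher and 8 lower of 20 in MEF, and 7 higher and 8 lower of 20 in HPC-7. In K562, 1 of them was lower with DESeq2, library size alone, no filter, the replicate block or Control replicate 3 left out. Those settings called 1630 to 2034 genes in all. Without Control replicate 1 of K562, the other clients had 5 of 24 higher and 7 lower, and the non-clients 2 of 20 higher and 5 lower. Of all genes tested in that setting 14% were higher and 14.6% lower. Without any 1 HSP90i library or Control replicate 2 the other clients of K562 had 1 call, where 348 to 569 of all genes were called. DESeq2 called 8 of 23 other clients of K562 and 1911 of all 13456 genes.

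Ligands of the receptors fell more than they rose in MEF, with 5 of 16 higher and 9 lower (median −0.83). Of all MEF genes 35.1% were higher and 38.2% lower. Ereg, which encodes the EGF receptor ligand epiregulin, was at 8.5, 8.27 and 7.48 CPM in HSP90i MEF, against 97.2, 108.8 and 95.1 CPM in Control MEF, a fall of 3.62 ± 0.08 in log2 terms. Areg and Hbegf, ligands of the same receptor, fell by 3.17 ± 0.24 and 2.24 ± 0.07, in the libraries in which Egfr itself rose. In HPC-7, 2 of 4 ligands rose and 1 fell. Pdgfb, the ligand of Pdgfrb, rose there by 1.85 ± 0.17, in the line in which Pdgfrb rose. In K562 1 of 6 was higher, EGF (1.85 ± 0.28), and 2 were lower, IGF1 (−1.89 ± 0.36) and PDGFA (−1.82 ± 0.43), each from at most 44 counts in a library. Without HSP90i replicate 1 or 2 of K562, 1 of 6 ligands was called, where 356 of 13790 and 348 of 13800 genes were.

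Adaptors that link receptors to the cytosolic kinases had 10 of 17 higher and 2 lower in HPC-7 (median 0.24). Of all HPC-7 genes 36.5% were higher and 36.6% lower. Gab1, a docking protein of several receptors, rose by 1.67 ± 0.10, Irs2, the insulin receptor substrate, by 1.45 ± 0.13, and Frs2, the docking protein of the FGF receptors, to 97.3 ± 4.92 CPM in HSP90i libraries against 48.7 ± 4.24 CPM in Control libraries (SD, n = 3 each). In MEF 6 of 20 were higher and 8 lower, with Ikbkg, the regulatory subunit of the IkB kinases, up by 1.31 ± 0.05 and Ptk2, the focal adhesion kinase gene, down by 0.81 ± 0.06. K562 had 2 of 18 higher, SHC1 (0.91 ± 0.13) and IRS2 (0.65 ± 0.16), and 1 lower, IRS1 (−3.30 ± 0.48). Without Control replicate 1, 5 of 18 were called, where 28.6% of all genes were.

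Of the genes listed as negative regulators, 4 of 20 were higher and 14 lower in MEF (median −0.67), where 35.1% of all genes were higher and 38.2% lower. Pkmyt1, the membrane-bound relative of Wee1, fell by 3.08 ± 0.09, and Cdc25c, the phosphatase that opposes both, by 1.93 ± 0.08. Pkmyt1 and the listed CDC25 genes act on cyclin-dependent kinases rather than on a member kinase. The count therefore covers more than regulators of the client kinases. Lrig1, which promotes degradation of EGF receptors, rose to 388.2, 394.7 and 380.0 CPM in HSP90i MEF, against 80, 77.4 and 81.4 CPM in Control MEF (2.28 ± 0.04). In HPC-7, 4 of 18 were higher and 7 lower, with Tnfaip3, an inhibitor of NF-kB signalling, up by 1.49 ± 0.11 and Cdc25c down, at −1.68 ± 0.11. In K562 1 of 18 was higher and 4 lower, the inhibitors of JAK signalling CISH, SOCS1, SOCS2 and SOCS3, with SOCS3 at −2.46 ± 0.25 and SOCS1 at −2.50 ± 0.34. Without Control replicate 1 there were 3 of 18 higher and 7 lower, where 14% of all genes were higher and 14.6% lower. All 6 lists were chosen with results of these data known, and their counts are descriptions.

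Summed marker levels differed with treatment in each line. In K562, the line's own 10 markers summed to 1751.4 to 1941.2 CPM in HSP90i libraries and 2005.6 to 2121.2 CPM in Control libraries, and the blood progenitor markers to 714.6 to 759.2 CPM in HSP90i libraries and 1018.7 to 1039.0 CPM in Control libraries, with CD34 at 0. In HPC-7, the summed level of 4 endothelial markers was 40.2 to 50.4 CPM in HSP90i libraries and 7.41 to 9.35 CPM in Control libraries. Only 1 of the 4, Pecam1, reached 1 CPM there, and Tek was at 0, so the sum is mostly that of Pecam1. The 10 blood progenitor markers summed to 4840.4 to 5288.0 CPM in HSP90i libraries and 3117.7 to 3145.4 CPM in Control libraries, led by Kit. In MEF, 5 epithelial markers summed to 18.8 to 19.7 CPM in HSP90i libraries and 7 to 7.61 CPM in Control libraries, led by Krt19, and the 10 fibroblast markers, Pdgfrb among them, to 28741.0 to 29808.9 CPM in HSP90i libraries and 25750.9 to 27051.7 CPM in Control libraries. The part of these shifts in the client kinase results was not tested.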

How the data were processed

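K562, MEF and HPC-7 each gave 3 HSP90i and 3 Control RNA-seq libraries, grouped by their titles, with the DMSO columns of the tables taken as the Control libraries of the same line and number. The authors deposited unnormalised read counts for each gene. Per the submitters' processing notes, tools of the series included Trim Galore, TopHat2 2.0.13 and featureCounts, with no role or strand setting given, so overlapping and antisense genes may share reads. Which build lies behind each table is not given.

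The 32 genes and all lists were chosen with earlier results of these data known. Genes were filtered with filterByExpr, scaled with TMM and tested per line with edgeR 4.0.16 in R 4.3.3 (quasi-likelihood, Benjamini-Hochberg over all genes of the line, threshold 0.05). The difference between mouse lines was the interaction of line and condition. The procedure was tested on simulated counts. Count ratios of gene pairs, with 0.5 added to each count, were compared by exact permutation over libraries. Values per library are given for members called at 2-fold or more, for ABL1 and BCR, and for the uncalled member with the smallest SE in each family, and some others were added after values were seen. From each list, genes named were among the 4 with the smallest p per line. Cdc37, Hsp90aa1 in the mouse lines and Cdk1 in K562 were named besides.

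The fits were repeated with DESeq2 1.42.0, with upper quartile or RLE factors or plain library size, with no filter or 1 CPM in at least 3 libraries, with a block for the replicate number, and leaving out every library in turn, and for ratios with 2 added to each count. A direction was compared between settings only where one of them called the gene. Mouse positions and promoters came from RefSeq, GRCm38.p6. The deposited peak list was not used here, since no human annotation was at hand. Python 3.11.15 and matplotlib 3.10.9 drew the figures.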

Additional observations from a re-analysis of the deposited data

Results flagged for a closer look

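The responses of 18 client kinase mRNAs differed between MEF and HPC-7 by the interaction of line and condition (edgeR's quasi-likelihood test, adjusted over all genes). Each was singled out for that difference. Of all genes tested in both lines 53.3% differed, 32.1% with MEF above and 21.2% below. Values are the MEF log2 fold change minus the HPC-7 log2 fold change under the joint scaling, in which the median of all genes was 0.13. A negative value need not be a fall in MEF, since Insr rose in both lines. The MEF response lay below the HPC-7 response for the receptor genes Fgfr1 (−2.84), Pdgfrb (−1.15) and Insr (−0.37), and for the SRC-family genes Src (−1.74) and Fyn (−0.75). The same held for Jak3 (−1.28), Jak2 (−0.57), Tyk2 (−0.47) and Jak1 (−0.36), so for the whole JAK family. Wee1 differed by −1.34, Bcr by −1.15, Ilk by −1.07, Limk1 by −0.70, Ripk1 by −0.52 and Ikbkb by −0.44. The MEF response lay above that of HPC-7 for Chek1 (1.34), which fell in both lines, and for Abl1 (0.40) and Araf (0.32). With each line scaled by its own factors Chek1 (1.22 ± 0.53, adjusted p = 0.0796) and Araf (0.20 ± 0.08, adjusted p = 0.0686) were no longer called by edgeR, and the other 16 were. MEF received the higher dose, 200 nM against 50 nM, and line and dose cannot be told apart.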

How the results depend on the processing

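The count of client kinases called in K562, 0 of 28, was 1 (RIPK1, lower) with library size alone or upper quartile factors, which put the median of all genes at −0.13 and −0.09, and 0 to 10 with a library left out, the 10 without Control replicate 1. Calls among all K562 genes, 1491 in all, ran from 348 to 3917 with a library left out, the highest again without Control replicate 1, and the share higher was 46.1%, or 26.7% with library size alone and 35.3% with upper quartile factors. K562 ratios without overlap ran from 4 to 8, the 8 without Control replicate 1. The cause of these shifts was not tested. In MEF, 22 to 26 client kinases were called over the alternatives and in HPC-7 18 to 23, with 15 to 20 higher and always 3 lower. The mouse difference was called for 16 to 19 genes, and the 3 with MEF above were 0 with RLE factors, as they were without any 1 HPC-7 Control library, each of which put the median of all genes at −0.08 or −0.09.

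No called client kinase reversed its direction. Over 1118 refits of single genes, calls were lost in 34 and gained in 22.

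To see whether HSP90i and Control libraries of a number deviate together, the group mean of log CPM was subtracted for each gene. The correlations are of these deviations and do not give the likeness of whole libraries. Same-numbered libraries correlated at 0.281, 0.042 and 0.451 in K562, 0.268, −0.223 and −0.245 in MEF and 0.006, 0.023 and −0.09 in HPC-7. In K562 the values with other numbers were lower for replicate 1 (−0.162 and −0.267) and replicate 3 (−0.387 and 0.095). K562 replicate 2 correlated more with another number (0.169). In MEF the same number was highest for replicate 1 only. In HPC-7 values with other numbers lay between −0.116 and 0.104. Whether the numbers pair the libraries is thus not settled. The replicate block gave 0 called client kinases in K562, 25 for MEF and 19 for HPC-7, 17 differences between the mouse lines, and 1810, 8796 and 8129 calls over all genes of K562, MEF and HPC-7.

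The overlap of peaks with gene starts was not run, and levels of different genes were not ranked, since counts are not per length. Where a gene had few counts, as Erbb3 in MEF or JAK3 in K562, depth limits what can be said.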
